A study of Mus musculus with 12 samples.

Results

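The calcium release unit of the sarcoplasmic reticulum (SR) was examined as 8 genes chosen by symbol for their known place in it, namely Ryr2, Fkbp1b, Casq2, Trdn, Asph, Hrc, Jph2 and Srl. Each symbol matched 1 row of the 33641 genes listed in every sample, so all 8 members were found. Messenger RNA was sequenced from the left ventricle (LV) and the right ventricle (RV) of mice with 3 samples per ventricle and genotype, 12 samples in all. WT-PLN mice carry a human phospholamban coding sequence in place of the mouse one, and R14del-PLN mice carry the same human sequence without the codon for arginine 14. The labels give strain C57BL/6J, an age of 12 to 14 weeks and no further treatment for every group, and they call the mutant samples knockouts although a mutant protein is made. The study's methods describe male heterozygous R14del/WT mice against WT controls. The targeted insertion was loxP-flanked upstream of the human sequence, and chimeric males of 129/Sv-CP and C57Bl/6J origin were crossed with Sox2-Cre mice, a line known as background for activity in the early embryo rather than in cardiomyocytes alone. The comparisons share samples, so each group enters 2 of them. The labels do not say which LV and RV samples came from 1 heart, and p-values measure only the spread between these samples.

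In a cardiomyocyte, calcium that enters through channels in the T-tubule opens ryanodine receptors in the facing SR membrane, and the calcium released from the SR starts contraction. The receptor works as part of a complex. Calsequestrin stores calcium in the SR lumen beside the channel, triadin and junctin link it to the channel, junctophilin holds the SR close to the T-tubule, and an immunophilin binds the channel from the cytosol. Phospholamban acts on the other side of the cycle, where it restrains the pump that refills the SR, and the comparison asks whether transcripts of the release side differ where the pump's regulator is mutated.

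No member differed between genotypes or between ventricles at the threshold used, which was a limma adjusted p of at most 0.05 with a fold change of at least 1.5. The group means of the 7 abundant members differed by at most 1.25-fold in the 4 pairwise comparisons of genotypes and ventricles, with the R14del-PLN means of Hrc, Srl and Casq2 above the WT-PLN means in both ventricles by amounts that the spread between samples could not separate from 0. Fkbp1b stood apart. It was listed below 1 TPM in every sample, and its WT-PLN mean was 4.58-fold higher in the LV than in the RV. Both R14del-PLN groups lay between the WT-PLN groups. Its values did not overlap between groups in 3 of the 4 pairwise comparisons. In those 3, ranges did not overlap for 8.95% to 17.1% of the 22948 genes detected in at least 1 sample. The limma adjusted p of Fkbp1b over all genes was 0.115 at the lowest.

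Levels are in TPM, the share of a sample's transcripts that belongs to a gene after division by gene length, scaled so that each sample sums to 1000000. They hold no read counts, so sequencing depth and counting error are unknown. Mitochondrially encoded transcripts took 37.3% to 54.5% of TPM. Their share was 44.0% to 47.3% in WT-PLN LV and 48.7% to 52.7% in WT-PLN RV, 37.3% to 51.2% in R14del-PLN LV and 51.1% to 54.5% in R14del-PLN RV, and every other gene's TPM moves against that share. The LV R14del-PLN replicate 3 had the lowest share, the RV R14del-PLN replicate 3 carries the name of a separate sequencing run, and both WT-PLN replicate 1 samples had the Y-linked gene Ddx3y at 0.0217 and 0.0703 TPM where the others were at 15.8 to 24.9 TPM. These 2 samples go against the male mice of the methods, and each genotype comparison sets 1 of them among 3 WT-PLN samples against 0 among the R14del-PLN samples. Without both, the differences between genotypes of the 7 abundant members, on the log2 scale used below, lay between -0.24 for Ryr2 and 0.26 for Hrc in the LV and between -0.36 for Ryr2 and 0.28 for Casq2 in the RV. Of these members 0 were called. Over all genes tested, 230 were called in the LV and 88 in the RV, against 65 and 34 with all samples. The 10 ventricular cardiomyocyte markers were all present, with a summed level of 41970.5 to 64104 TPM, so heart muscle was borne out by its defining genes. Over both genotypes these sums overlapped between LV and RV samples, so they do not tell which ventricle a sample came from. The summed atrial markers reached 1347 TPM in WT-PLN LV replicate 3 and 908 TPM in WT-PLN RV replicate 2. In bulk tissue, fewer cardiomyocytes and less RNA per cardiomyocyte cannot be told apart.

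Ryr2 encodes the cardiac ryanodine receptor, the release channel itself. The gene spans chromosome 13 from 11553102 to 12106945 on the minus strand of GRCm38 (GENCODE M21), and its longest coding transcript has 105 exons and 16814 bases. Ryr2 was listed at 78.9, 93.9 and 118 TPM in WT-PLN LV and at 85.5, 106 and 156 TPM in WT-PLN RV. In R14del-PLN hearts it was at 67.7, 90.7 and 115 TPM in the LV and at 84.0, 134 and 88.2 TPM in the RV. The 4 groups overlapped throughout, and the coefficient of variation within a group was 20.4% to 31.2%.

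The luminal calcium binders were the most abundant members. Casq2 encodes cardiac calsequestrin (chromosome 3, 102086415 to 102146514, plus strand, 11 exons). Its level was 325, 308 and 333 TPM in WT-PLN LV and 289.5, 239 and 286 TPM in WT-PLN RV, and 336, 297 and 514 TPM in R14del-PLN LV and 326, 297 and 330.4 TPM in R14del-PLN RV. The 3 WT-PLN RV samples were the lowest of all 12, and 1 R14del-PLN LV sample, replicate 3, stood far above the rest. Of the 12526 genes that averaged 0.5 TPM or more, ranges did not overlap for 26.1% between WT-PLN ventricles and 11% between RV genotypes. Hrc encodes the histidine-rich calcium-binding protein of the SR lumen (chromosome 7, 45335290 to 45338974, plus strand, 6 exons). It was at 323, 325 and 362 TPM in WT-PLN LV and 343, 319 and 423 TPM in WT-PLN RV, and at 339, 380.5 and 539.7 TPM in R14del-PLN LV and 384, 563 and 371 TPM in R14del-PLN RV. The 2 values that stood highest came from single R14del-PLN samples, 1 in each ventricle. Srl encodes sarcalumenin, a luminal protein found with the SR calcium pump (chromosome 16, 4480216 to 4541816, minus strand, 7 exons). Its level was 288, 286 and 322 TPM in WT-PLN LV and 262, 254 and 330.3 TPM in WT-PLN RV. In R14del-PLN hearts, Srl was at 291, 325 and 446 TPM in the LV and 298, 382 and 298 TPM in the RV.

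Trdn and Asph supply the membrane anchors. Trdn encodes triadin (chromosome 10, 33080554 to 33476709, plus strand, 38 exons). It was at 231, 222 and 226 TPM in WT-PLN LV and 241, 206 and 264 TPM in WT-PLN RV, and at 205, 215 and 276 TPM in R14del-PLN LV and 227, 284 and 215 TPM in R14del-PLN RV. Over all 12 samples the coefficient of variation of Trdn was 11.4%, the lowest of the 8 members. Asph gives rise to junctin and junctate beside the aspartyl beta-hydroxylase for which it is named (chromosome 4, 9448069 to 9669344, minus strand), and 20 transcripts are annotated for it, which 1 value per gene cannot tell apart. Asph was at 97.6, 93.3 and 99.3 TPM in WT-PLN LV and 78.6, 82.5 and 96.3 TPM in WT-PLN RV, and at 84.2, 83.8 and 149.7 TPM in R14del-PLN LV and 74.0, 146 and 93.0 TPM in R14del-PLN RV. A single high sample in each R14del-PLN group made the spread there 35.8% of the mean, against 3.17% and 10.8% in the WT-PLN groups. Asph shares 2302 exonic bases with Clvs1 on the opposite strand, and Clvs1 was at 0.905 to 2.88 TPM. How strand was treated in the counting is not given in the sources used here.

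Jph2 encodes junctophilin, which ties the SR to the T-tubule (chromosome 2, 163336242 to 163397993, minus strand, 6 exons). It was at 103, 100.1 and 119 TPM in WT-PLN LV and 85.3, 92.0 and 93.5 TPM in WT-PLN RV, and at 91.4, 96.5 and 133 TPM in R14del-PLN LV and 83.1, 102 and 84.5 TPM in R14del-PLN RV. The WT-PLN RV samples all lay below the WT-PLN LV samples, where ranges did not overlap for 26.1% of the 12526 genes that averaged 0.5 TPM or more. The R14del-PLN groups overlapped, where 9.98% of these genes did not. The group means of Jph2 were 90.2 TPM (RV) against 107 TPM (LV) in WT-PLN and 90.0 TPM against 107 TPM in R14del-PLN hearts.

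Fkbp1b encodes the immunophilin with the higher affinity for the cardiac channel (chromosome 12, 4833174 to 4841591, minus strand, 4 exons). It was listed at 0.876, 0.581 and 0.623 TPM in WT-PLN LV and at 0.234, 0.104 and 0.116 TPM in WT-PLN RV. In R14del-PLN hearts, Fkbp1b was at 0.271, 0.368 and 0.237 TPM in the LV and at 0.416, 0.255 and 0.278 TPM in the RV. Every WT-PLN LV value was above every other sample, every WT-PLN RV value was below every other sample, and the R14del-PLN groups overlapped each other in between. Of the 22948 genes detected in at least 1 sample, ranges did not overlap for 9.32% between LV genotypes, 8.95% between RV genotypes and 17.1% between WT-PLN ventricles. Its mean of 0.363 TPM over all samples placed it 13019th of the 33641 genes listed, so the values rest on little signal. Fkbp1a, its close relative, was at 54.9 to 87.3 TPM. Their best alignment covers 314 bases at 75.8% identity, and for no member did another gene match 80% or more of the longest coding transcript at 95% identity.

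**Figure D1:**
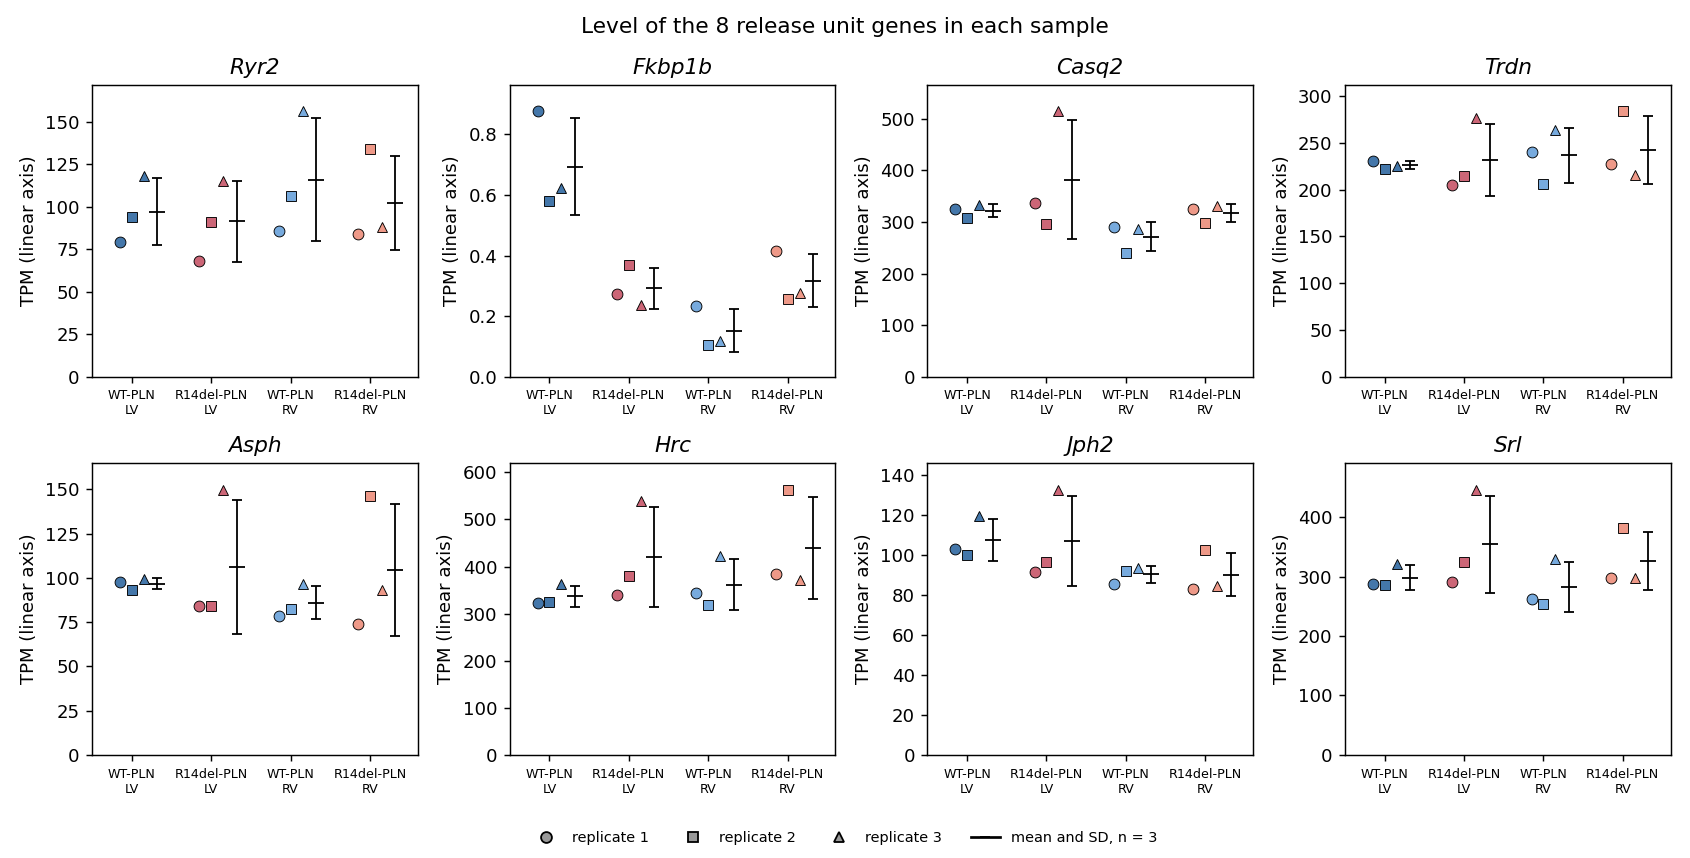
Level of each of the 8 members in TPM (vertical axes, linear, each starting at 0) in the 4 groups, with 1 marker per sample shaped by replicate number and a bar for the mean and SD of 3 samples. The WT-PLN LV samples of Fkbp1b, at 0.581 to 0.876 TPM, sit above all others, and single R14del-PLN samples stand above their groups for Hrc, Asph and Srl.

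By mean TPM over the 12 samples, Hrc was first at 389 ± 81.5 TPM (SD, n = 12), followed by Casq2 at 323 ± 66.1, Srl at 315 ± 53.3, Trdn at 234 ± 26.6, Ryr2 at 102 ± 25.3, Jph2 at 98.6 ± 14.6, Asph at 98.2 ± 24.5 and Fkbp1b at 0.363 ± 0.228 TPM. Hrc exceeded Casq2 in 11 of 12 samples, with ratios of 0.993 to 1.89. Casq2 exceeded Srl in only 8 of 12, so these neighbours did not differ beyond their spread. Srl exceeded Trdn and Trdn exceeded Ryr2 in 12 of 12 samples, the latter by 1.69-fold to 3.02-fold. Ryr2, Jph2 and Asph could not be ordered, since Ryr2 exceeded Jph2 in 6 samples of 12 and Jph2 exceeded Asph in 8. Fkbp1b was last in 12 of 12, and Asph exceeded it by at least 111-fold. Trdn held rank 4 in every sample.

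Between R14del-PLN and WT-PLN hearts in the LV, 0 of 8 members were called, where limma called 65 of 12526 genes, or 0.519%. Genes entered this fit at 0.5 TPM or more on average, which 7 of the 8 members met. Fkbp1b lay under that minimum and was tested beside the 22948 genes detected in at least 1 sample, of which 0.0959% were called. The log2 differences of TPM + 1, R14del-PLN minus WT-PLN, of those 7 lay between -0.10 for Ryr2 and 0.29 for Hrc, and 5 were above 0. Over all genes tested, 71.7% of differences were below 0 and the median was -0.09, so the median of the 7 members, at 0.08, and 6 of the 7 lay above that of all genes. Hrc differed by 0.29 ± 0.19 (SE, limma adjusted p = 0.702), with a mean of 419.8 TPM against 337 TPM. Srl differed by 0.22 ± 0.17 (limma adjusted p = 0.746) and Casq2 by 0.21 ± 0.17 (limma adjusted p = 0.772). Their unadjusted p was above 0.05, as for the other 4 abundant members, where 9.6% of all genes were at or below it. This count depended on the scaling. After quantile normalization and after upper quartile scaling Casq2, Hrc and Srl were all at or below it, where 14.4% and 14.2% of all genes were, with a lowest limma adjusted p of 0.196 and 0.111. Without the R14del-PLN LV replicate 3, the sample with the smallest mitochondrial share, the difference of Casq2 was -0.03, that of Hrc 0.09 and that of Srl 0.05.

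Fkbp1b was lower in R14del-PLN LV, at 0.292 ± 0.0679 TPM against 0.694 ± 0.159 TPM (SD, n = 3 each). The mean was 2.38-fold higher in WT-PLN hearts. On the scale of log2(TPM + 1), which compresses changes this far below 1 TPM, the difference was -0.39 ± 0.08 (SE, limma adjusted p = 0.131). The ranges did not overlap, as for 9.32% of the 22948 genes, of which 7.99% had an unadjusted p of at most 0.05, and the difference lay 0.30 below the median of the 12526 genes. With a pseudocount of 0.1 it was -1.01 (limma adjusted p = 0.295). Without both WT-PLN replicate 1 samples it was -0.31 (limma adjusted p = 0.0937). Markers of some other cell types lay lower in the same comparison, though 0 were called. Over the 12526 genes, 71.7% of differences were below 0 and ranges did not overlap for 11%. The differences of the 7 atrial markers tested were all below 0, with a median of -2.00 and 2 of 7 without overlap, and their summed level with the 1 untested marker was 168 to 343 TPM in R14del-PLN LV against 234 to 1347 TPM in WT-PLN LV. All 5 red cell markers were below 0, with 3 of 5 not overlapping and sums of 1093 to 2142 TPM against 2087 to 2316 TPM, as were all 7 fibroblast markers and the 4 adipocyte markers tested. No marker was at 0 in every LV sample of either genotype for these 4 lists. Endothelial markers went the other way, with 5 of 7 above 0, a median of 0.07 and 1 of 7 higher without overlap. The part of these cell types in the Fkbp1b difference was not tested.

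In the RV, 0 of 8 members were called between genotypes, where limma called 34 genes, or 0.271% (0.0741% when every detected gene was tested). The 7 abundant members differed by -0.17 for Ryr2 to 0.26 for Hrc, 5 of them above 0. The median of the 7 was 0.21 and that of all genes 0.00, with 50.9% of all genes below 0. Casq2 was at 318 ± 18.0 TPM in R14del-PLN and 272 ± 28.2 TPM in WT-PLN hearts (SD, n = 3 each), and every R14del-PLN sample was above every WT-PLN sample, where ranges did not overlap for 11% of all genes. The log2 difference of Casq2 was 0.23 ± 0.17 (SE, limma adjusted p = 1). An exact two-sided permutation test of its TPM gave p = 0.1, the smallest that 3 samples against 3 allow. Hrc differed by 0.26 ± 0.19 and Srl by 0.21 ± 0.17 (limma adjusted p = 1 for both), with overlapping ranges. None of the 7 had an unadjusted p of at most 0.05, where 6.22% of the 12526 genes did. After quantile normalization Casq2, Hrc and Srl, and after upper quartile scaling Hrc and Srl, had an unadjusted p of at most 0.05, where 12.7% of all genes did under each, with limma adjusted p of 0.303 or more. Asph differed by 0.23 ± 0.24, and without the R14del-PLN RV replicate 2, its highest sample, by -0.04.

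In contrast to the LV, Fkbp1b was higher in R14del-PLN RV, at 0.316 ± 0.0874 TPM against 0.151 ± 0.0717 TPM (SD, n = 3 each), a mean 2.09-fold higher with all 9 sample pairs in that order. The log2 difference was 0.19 ± 0.08 (SE, limma adjusted p = 0.832), where 5.44% of the 22948 genes had an unadjusted p of at most 0.05 and 8.95% had ranges that did not overlap. The lowest R14del-PLN value, 0.255 TPM, and the highest WT-PLN value, 0.234 TPM, were close together. Beside it, all 5 red cell markers had differences below 0 in this comparison, with 4 of 5 not overlapping. Their sums were 956 to 1368 TPM in R14del-PLN RV against 1461 to 1736 TPM in WT-PLN RV. All 7 fibroblast markers were also below 0. Above 0 were 6 of 7 endothelial, 6 of 7 smooth muscle and pericyte and all 4 adipocyte markers tested. Of these, 2, 1 and 0 were higher without overlap. Over the 12526 genes, 50.9% of differences were below 0 and ranges did not overlap for 11%. The part of these cell types in the result was not tested.

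The test of the interaction, the RV difference between genotypes minus the LV difference, called 0 of 8 members and 0% of genes in either fit. For Fkbp1b it was 0.58 ± 0.11 (SE, limma adjusted p = 1), where 2% of the 22948 genes had an unadjusted p of at most 0.05. The genotype difference of Fkbp1b was thus below 0 in every LV comparison of samples and above 0 in every RV comparison, and the difference between ventricles did not pass correction over all genes. None of the other 7 had an unadjusted p of at most 0.05 for the interaction, where 1.01% of the 12526 genes did.

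**Figure D2:**
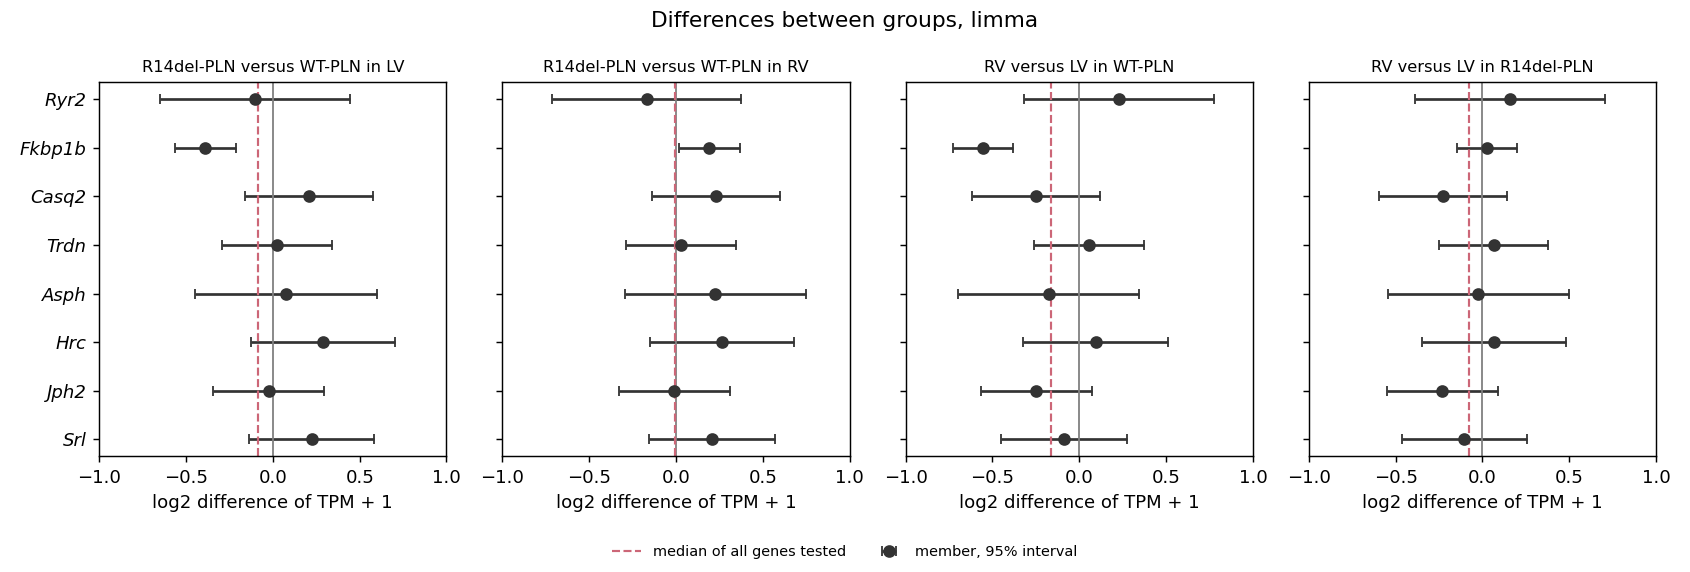
Log2 differences of TPM + 1 for each member (horizontal axes, with 95% intervals from limma) in the 4 comparisons named above the panels, with a dashed line at the median of all genes tested. The intervals of the 7 abundant members include 0 throughout, and the Fkbp1b interval lies below 0 for genotypes in the LV and for ventricles in WT-PLN hearts and above 0 for genotypes in the RV, from 0.02 to 0.37.

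Within WT-PLN hearts, 0 of 8 members were called between RV and LV, and limma called 0% of genes, or 0.00436% when every detected gene was tested, although 14.5% had an unadjusted p of at most 0.05. Most genes had lower TPM in the RV, with 85.9% of differences, RV minus LV, below 0 and a median of -0.17. Casq2 differed by -0.25 ± 0.17 (SE, limma adjusted p = 0.467) and Jph2 by -0.25 ± 0.15 (limma adjusted p = 0.423), both with every RV sample below every LV sample. Ranges did not overlap for 26.1% of all genes in this comparison. Relative to the median of all genes the 2 differences were -0.09 and -0.08. Ryr2 averaged 116 ± 36.2 TPM (RV) against 97.0 ± 19.8 TPM (LV), a log2 difference of 0.23 ± 0.25 (limma adjusted p = 0.643). Trdn, Hrc, Asph and Srl differed by 0.06, 0.09, -0.18 and -0.09, each by less than its SE. The numbers of the WT-PLN samples paired the ventricles, as judged from shared deviations and not from the labels, and 3 pairs cannot give an exact paired p below 0.25. Within the 3 pairs Ryr2 was higher in the RV in all 3, and Casq2, Jph2, Asph and Fkbp1b were lower in all 3. Trdn and Hrc were higher in 2 of 3 and Srl in 1 of 3. The share of all genes with the same direction in all 3 pairs was not computed, and 85.9% of all differences were below 0 here. No fit used the pairing of the WT-PLN samples alone. With the sample number as a block, 0 members were called, and so were 0 of the 12526 genes. The block was a random term within each genotype or a fixed term across all groups. In the same samples, the summed level of the 7 endothelial markers was 414 to 460.2 TPM for the RV against 550.4 to 583 TPM for the LV, and that of the 10 cardiomyocyte markers was 44726 to 47821 TPM against 50027 to 54871 TPM. The part of these shifts in the member values was not tested.

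Fkbp1b had the widest gap of any member here, at 0.151 ± 0.0717 TPM in the RV against 0.694 ± 0.159 TPM in the LV (SD, n = 3 each). The log2 difference was -0.55 ± 0.08 (SE, limma adjusted p = 0.115), and the ranges did not overlap, as for 17.1% of the 22948 genes, of which 11.2% had an unadjusted p of at most 0.05. With a pseudocount of 0.1 the difference was -1.68 (limma adjusted p = 0.230). The summed atrial markers were 234 to 1347 TPM in WT-PLN LV and 125 to 908 TPM in WT-PLN RV, overlapping, and the smooth muscle and pericyte markers were 184 to 407 TPM in the LV and 157 to 198 TPM in the RV. Whether they bear on Fkbp1b was not tested.

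Promoters of the members whose WT-PLN ventricles did not overlap are shown for the bases before their RefSeq start sites (GRCm38.p6). A promoter entry was matched for 5 of the 8 members, with none for Trdn, Asph and Srl. The 250 bases upstream of Casq2 (chr3:102086165-102086414, plus strand), Jph2 (chr2:163397994-163398243, minus strand) and Fkbp1b (chr12:4841574-4841823, minus strand) read 5′ to 3′, with E-box letters (CANNTG, the same on both strands) in capitals.
Casq2: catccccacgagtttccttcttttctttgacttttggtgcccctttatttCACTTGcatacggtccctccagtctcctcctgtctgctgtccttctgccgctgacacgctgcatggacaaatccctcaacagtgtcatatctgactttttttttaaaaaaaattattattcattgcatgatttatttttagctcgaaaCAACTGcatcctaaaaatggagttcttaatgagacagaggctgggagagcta
Jph2: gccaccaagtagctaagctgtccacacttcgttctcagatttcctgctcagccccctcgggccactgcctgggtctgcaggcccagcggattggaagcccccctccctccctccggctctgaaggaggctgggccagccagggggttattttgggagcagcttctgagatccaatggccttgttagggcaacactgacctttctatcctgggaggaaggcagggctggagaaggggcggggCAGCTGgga
Fkbp1b: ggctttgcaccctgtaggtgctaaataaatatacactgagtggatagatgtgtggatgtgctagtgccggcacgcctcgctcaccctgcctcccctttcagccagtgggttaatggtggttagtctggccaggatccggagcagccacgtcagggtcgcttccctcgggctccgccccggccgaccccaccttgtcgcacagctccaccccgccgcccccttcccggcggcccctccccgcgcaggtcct
Casq2 held 2 E-boxes, Jph2 held 1 and Fkbp1b held 0, and 66.2% of 32817 promoters of that length held at least 1. The TATA box (TATAAA), searched on both strands, was in none of the 3, where 12.4% of promoters held it. The GATA motif (AGATAA) was likewise in none, against 9.99% of promoters. The M-CAT motif (CATTCC) was in none, against 12.6%. The 3 differed in base composition, with 41.6% G and C in Casq2, 62.0% in Jph2 and 64.8% in Fkbp1b around a median of 52.4%. These letters describe the windows and say nothing of the factors that bind there.

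Within R14del-PLN hearts, 0 of 8 members were called between RV and LV, and limma called 0% of genes in either fit, where 6.57% had an unadjusted p of at most 0.05 and 70.3% of differences were below 0. Jph2 and Casq2 again had the lowest differences, RV minus LV, at -0.23 ± 0.15 (SE, limma adjusted p = 0.864) and -0.23 ± 0.17 (limma adjusted p = 0.906), here with overlapping ranges. Ryr2 had the highest, at 0.16 ± 0.25 (limma adjusted p = 0.993). Fkbp1b averaged 0.316 ± 0.0874 TPM (RV) against 0.292 ± 0.0679 TPM (LV), a difference of 0.03 ± 0.08 (limma adjusted p = 1, 95% interval -0.15 to 0.20). Ranges did not overlap for 9.98% of the 12526 genes in this comparison (8.05% of the 22948) and for 0 of the 8 members, and 5.9% of the 22948 genes had an unadjusted p of at most 0.05.

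The summed level of the 8 members was 1485 ± 82.6 TPM in WT-PLN LV and 1444 ± 182 TPM in WT-PLN RV, and 1692 ± 419 TPM in R14del-PLN LV and 1622 ± 248 TPM in R14del-PLN RV (SD, n = 3 each). The R14del-PLN means were 13.9% higher in the LV and 12.3% higher in the RV, within the spread between samples (exact two-sided permutation p = 0.7 and p = 0.4, 0.8 for both after Benjamini-Hochberg adjustment over 4 comparisons). The sum was highest, at 2174 TPM, in the R14del-PLN LV replicate 3. Next was the R14del-PLN RV replicate 2 at 1908 TPM, whose mitochondrial share of 51.1% was close to that of the other samples of its group and which had Myh6, the main myosin of the mouse ventricle, at 8262 TPM against 3391 and 3670 TPM in replicates 3 and 1.

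When TPM were rescaled without the mitochondrially encoded genes, the sum was 2711 to 2824 TPM in WT-PLN LV and 2899 to 3467 TPM in R14del-PLN LV. These LV ranges no longer overlapped, and the means differed by 13.6% (exact two-sided permutation p = 0.1, the smallest possible, adjusted p = 0.4 over 4 comparisons). In the RV the sums were 2663 to 3212 TPM and 3039 to 3903 TPM, still overlapping, and the means differed by 15.8% (exact p = 0.2, adjusted p = 0.4). On this scale the Srl difference in the LV was 0.24 (limma adjusted p = 0.351) and the Casq2 difference in the RV was 0.27 (limma adjusted p = 0.438). Upper quartile scaling put all 7 abundant members above 0 in the LV, with a median of 0.19 against 0.01 for all genes, and gave the lowest adjusted p of any abundant member under any setting tried, 0.111 for Srl in the LV.

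**Figure D3:**
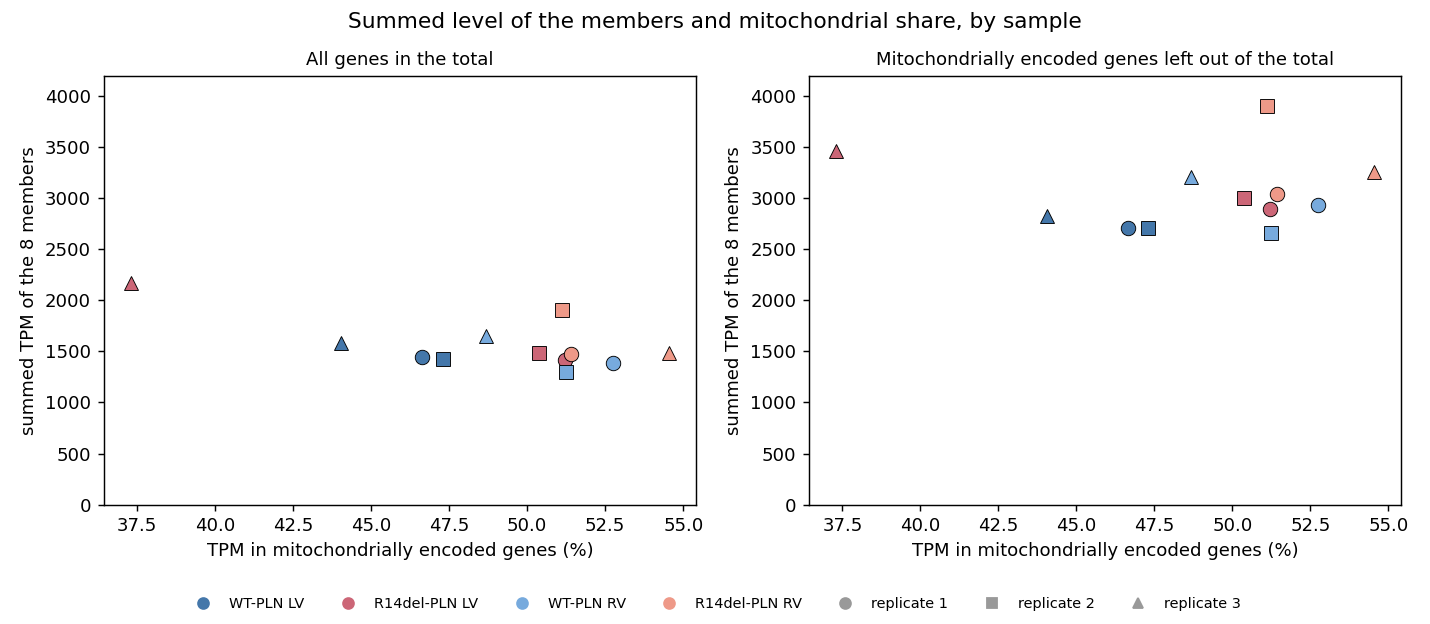
Summed TPM of the 8 members (vertical axes, linear from 0) against the share of TPM in mitochondrially encoded genes (horizontal axes, percent) for the 12 samples, with all genes in the total at left and without mitochondrially encoded genes at right. The R14del-PLN LV replicate 3 stands alone at 37.3%, and at right the 3 WT-PLN LV samples lie between 2711 and 2824 TPM, below the R14del-PLN LV samples.

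Ratios of 2 members within a sample do not depend on the mitochondrial share, and 9 ratios were compared over the 4 pairs of groups, 36 comparisons in all. The exact two-sided permutation test could not go below p = 0.1, and the lowest adjusted p was 0.514. Ranges did not overlap in 7 of the 36, which share genes and samples. For single genes the share without overlap was 9.98% to 26.1% of the 12526 over the 4 comparisons. The share over ratios of other genes was not computed. Jph2/Ryr2 was lower in the RV in both genotypes, at 0.821 ± 0.203 against 1.13 ± 0.157 in WT-PLN and 0.904 ± 0.121 against 1.19 ± 0.147 in R14del-PLN hearts (SD, n = 3 each). It was the only ratio of the 9 whose ranges did not overlap between ventricles in both genotypes. In WT-PLN hearts, Trdn/Casq2 was 0.871 ± 0.0460 in the RV and 0.703 ± 0.0237 in the LV, and Hrc/Casq2 was 1.33 ± 0.145 in the RV and 1.05 ± 0.0475 in the LV. The R14del-PLN ventricles overlapped for both, at 0.768 ± 0.163 against 0.623 ± 0.0944 for Trdn/Casq2 and 1.40 ± 0.431 against 1.11 ± 0.147 for Hrc/Casq2.

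Between genotypes, Asph/Casq2 in the LV was 0.275 ± 0.0213 in R14del-PLN and 0.300 ± 0.00273 in WT-PLN hearts, without overlap. Fkbp1b/Ryr2 was 0.00752 ± 0.00313 in WT-PLN LV, 0.00149 ± 0.00109 in their RV, and 0.00337 ± 0.00114 and 0.00334 ± 0.00153 in the LV and RV of R14del-PLN hearts. Its ranges did not overlap between WT-PLN ventricles or between genotypes in the LV. Casq2/Ryr2 was 3.41 ± 0.660 and 4.23 ± 0.869 in the LV and 2.49 ± 0.803 and 3.28 ± 0.920 in the RV of WT-PLN and R14del-PLN hearts, with overlap throughout. Within the 3 WT-PLN pairs it was lower in the RV each time, going from 4.12 to 3.39, from 3.28 to 2.25 and from 2.82 to 1.84. How often ratios of other genes kept 1 direction in all 3 pairs was not computed. Against the pump, Casq2/Atp2a2 averaged 0.109 ± 0.0130 in WT-PLN LV, 0.134 ± 0.0195 in R14del-PLN LV, and 0.0926 ± 0.0130 and 0.116 ± 0.0164 in the RV of these genotypes, overlapping in both (exact two-sided permutation p = 0.2 for each, adjusted p = 0.568). Ryr2/Atp2a2 stayed between 0.0284 and 0.0450 in the 12 samples.

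**Figure D4:**
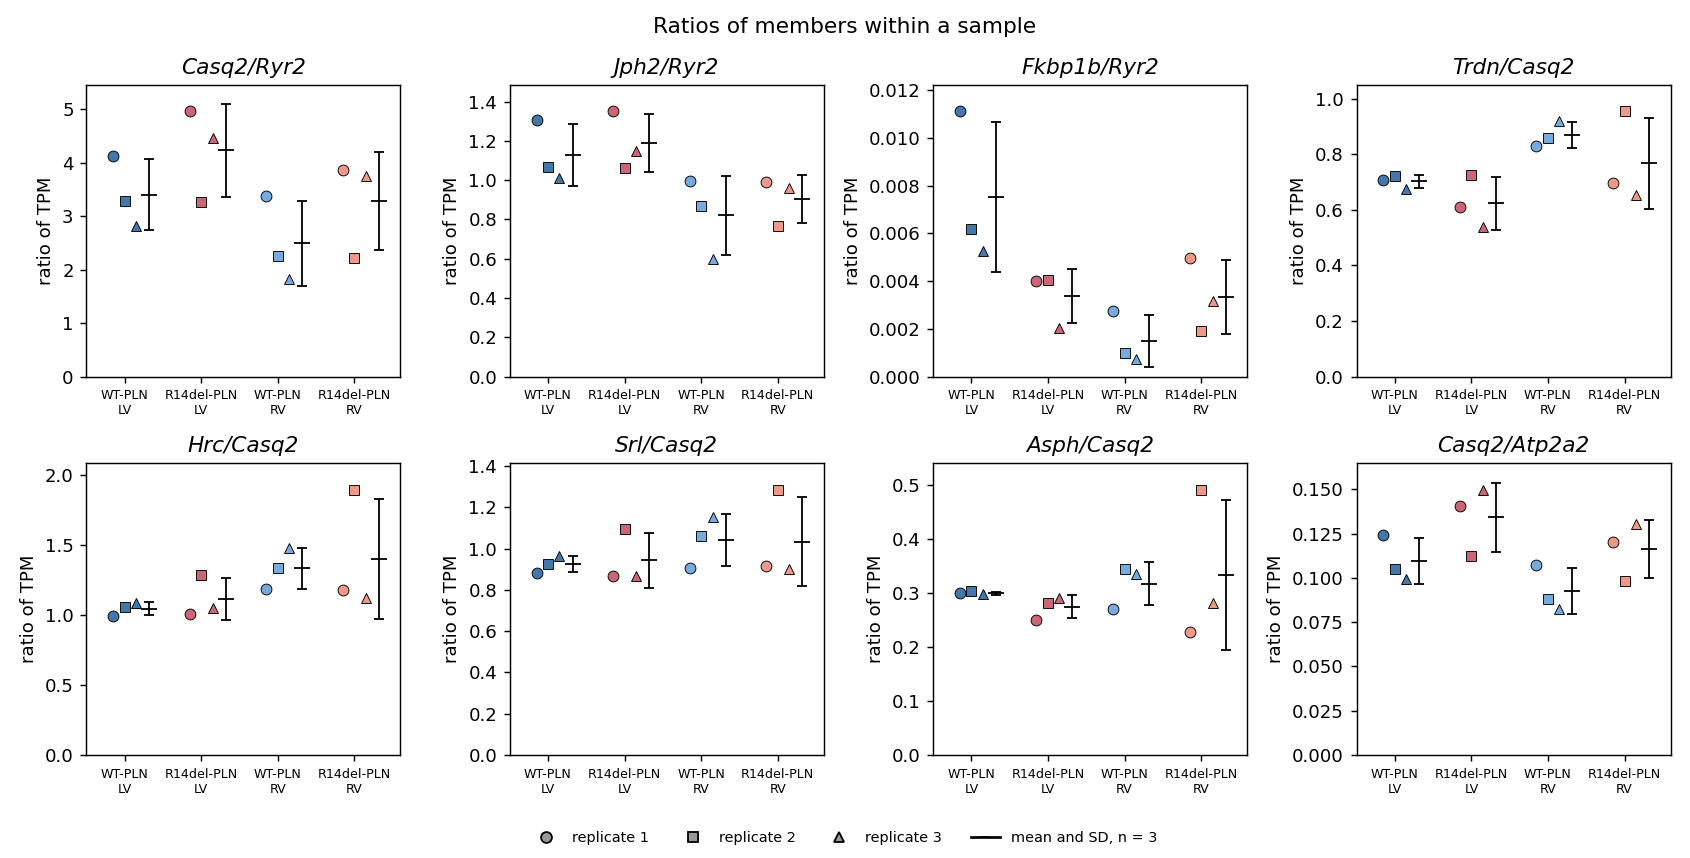
Ratios of TPM within a sample (vertical axes, linear from 0) for 8 of the 9 ratios in the 4 groups, with 1 marker per sample and a bar for the mean and SD of 3 samples. Jph2/Ryr2 lies lower in the RV than in the LV of the same genotype, and Trdn/Casq2 lies higher in the RV than in the LV of WT-PLN hearts without overlap.

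The members varied together over the 12 samples to different degrees. Hrc and Srl had a Pearson r of 0.91 in log2(TPM + 1), Asph and Srl 0.86, and Trdn and Hrc 0.85, while Ryr2 and Casq2 had -0.04. Fkbp1b had r between -0.37 and 0.27 with the other 7. The 5 other genes whose profile was most like the mean of the centred members, among 4438 genes that averaged 10 TPM or more, were Pacsin3 (r = 0.98), Srsf5 (0.98), Suclg2 (0.98), Gfm2 (0.98) and Coq7 (0.97). Pacsin3 encodes a membrane-bending adaptor of muscle and was at 79.1 to 145.6 TPM, with its highest values in the R14del-PLN LV replicate 3 and the R14del-PLN RV replicate 2, the samples with the highest summed members. These values share the libraries and the mitochondrial share and describe likeness in 12 samples only.

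Genes around the release unit were read from 4 lists, and 0 genes of any list were called in any comparison. Of 11 genes for calcium uptake and its regulation, 8 were in the files and 7 passed the filter. Pln was at 1801 ± 85.1 TPM in WT-PLN LV, 1630 ± 79.5 TPM in R14del-PLN LV, 1777 ± 163 TPM in WT-PLN RV and 1727 ± 80.6 TPM in R14del-PLN RV (SD, n = 3 each). Atp2a2, the SR calcium pump, was at 2971 ± 371 TPM in WT-PLN LV, 2819 ± 547 TPM in R14del-PLN LV, 2960 ± 437 TPM in WT-PLN RV and 2752 ± 247 TPM in R14del-PLN RV. S100a1, a calcium sensor that binds both the pump and the release channel, was lower in the RV without overlap in both genotypes. Its WT-PLN values were 518 to 550.1 TPM against 654 to 745 TPM (log2 difference -0.39 ± 0.13, SE, limma adjusted p = 0.258). Its R14del-PLN values were 488 to 563 TPM against 566 to 764 TPM (-0.31 ± 0.13, SE, limma adjusted p = 0.738). These R14del-PLN ranges nearly met, at 563 and 566 TPM. Of the 12526 genes, 25.2% were lower in the RV without overlap between WT-PLN ventricles, and 8.72% were between R14del-PLN ventricles.

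Of 10 other release channels and isoforms of members, 6 passed the filter. Fkbp1a, the widespread immunophilin that also binds ryanodine receptors, was at 69.7, 77.1 and 87.3 TPM in WT-PLN LV, above all 9 other samples, which reached 68.4 TPM. Its difference between genotypes in the LV was -0.28 ± 0.11 (SE, limma adjusted p = 0.445) and that between RV and LV in WT-PLN hearts was -0.33 ± 0.11 (SE, limma adjusted p = 0.285). Itpr1, an inositol trisphosphate receptor, and Jph1, the junctophilin typical of skeletal muscle, had means of 7.75 and 5.05 TPM over the 12 samples, and Ryr3 and Ryr1 had means of 0.464 and 0.0491 TPM. The 7 skeletal muscle markers summed to 23.5 to 74.6 TPM, with the fast myosins Myh1, Myh2 and Myh4 at 0.0827 TPM or less. The 1 that passed the filter, the myosin light chain gene Myl1, was lower in R14del-PLN RV by -0.71 ± 0.29 (SE, limma adjusted p = 0.689) with overlapping ranges.

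Of 14 junctional and T-tubule partners, 12 passed the filter, and of 12 genes of the SR lumen and membrane all 12 did. Tcap, a Z-disc protein that reaches the T-tubule, was at 1754 ± 129 TPM in WT-PLN LV, 1518 ± 415 TPM in R14del-PLN LV, 1451 ± 91.5 TPM in WT-PLN RV and 1265 ± 129 TPM in R14del-PLN RV. Slc8a1, the sodium-calcium exchanger, and Lrrc10, a cardiomyocyte cytoskeletal protein, differed between genotypes by -0.09 and -0.33 in the LV and by -0.15 and -0.21 in the RV (limma adjusted p of 0.588 or more). In the RV, genotype ranges did not overlap for 2 of the 12 lumen and membrane genes, where they did not for 11% of the 12526 genes. Both were named after their values were seen. Dhrs7c, an SR dehydrogenase, was at 115 to 150 TPM in R14del-PLN and 89.7 to 112 TPM in WT-PLN hearts (log2 difference 0.42 ± 0.15, SE, limma adjusted p = 0.567). Orai1, a calcium entry channel of the cell surface, was at 4.04 ± 0.727 TPM against 5.20 ± 0.134 TPM (SD, n = 3 each, log2 difference -0.31 ± 0.14, SE, limma adjusted p = 0.803). Tmem38a, a counter-ion channel of the SR, differed by 0.04 in the LV and 0.02 in the RV, and the chaperones Hspa5 and Calr by -0.09 and -0.13 in the LV (limma adjusted p of 0.878 or more). The median difference between genotypes in the LV was -0.12 for the uptake list, -0.21 for the release channel list, -0.09 for the partners and -0.06 for the lumen and membrane genes, against -0.09 for all genes and 0.08 for the 7 abundant members.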

How the data were processed

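RNA of 12 LV and RV samples was sequenced from stranded polyA libraries. The authors deposited 1 TPM value per gene and sample, made after mapping to GRCm38 with CLC Genomics Workbench. The annotation and the strand setting of the counting are not given in the sources used here. TPM of each sample sum to 1000000, so depth and counting error are unknown. Groups came from the sample titles, and the samples titled as knockouts are the R14del-PLN samples.

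Differences were tested with limma 3.58.1 in R 4.3.3 on log2(TPM + 1), with 1 mean per group, an intensity trend, 12526 genes that averaged 0.5 TPM or more and Benjamini-Hochberg adjustment over all of them. Fkbp1b was tested among all 22948 genes above 0 TPM. Sums and ratios were compared by exact permutation tests. The fit was tested on simulated data with known changes. Annotation was GENCODE M21, and near-identical copies were sought with BLAST. Python 3.11.15 was used for the rest.

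Deviations from group means in samples with the same number correlated at 0.66, 0.32 and 0.46 between WT-PLN ventricles and at 0.39, 0.23 and 0.05 between R14del-PLN ventricles. Between genotypes they correlated at -0.02, 0.16 and 0.09 in the LV and at 0.06, 0.22 and 0.13 in the RV. Each WT-PLN LV sample correlated most with the WT-PLN RV sample of its number, so these were read as pairs. The same held for R14del-PLN LV replicates 1 and 2. R14del-PLN LV replicate 3 correlated more with RV replicate 2, at 0.12, so pairs were left undecided in that genotype. The labels do not state a pairing.

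Named genes were the 8 members, Pln, Atp2a2, genes of the 4 lists that were called or otherwise the 3 of each with the highest mean TPM, and the 5 genes most like the members. Ddx3y, Clvs1, Myh6, Ryr1, Ryr3, Dhrs7c, Orai1, Myl1 and the skeletal myosins were named after their values were seen. Members and lists were chosen with earlier results of these data known.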

Additional observations from a re-analysis of the deposited data

Results flagged for a closer look

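The low listed levels of Fkbp1b differed between genotypes in opposite directions in the 2 ventricles. Each R14del-PLN sample was below each WT-PLN sample in the LV, at 0.237 to 0.368 TPM against 0.581 to 0.876 TPM, and above each in the RV, at 0.255 to 0.416 TPM against 0.104 to 0.234 TPM. Ranges did not overlap for 9.32% of the 22948 genes detected in at least 1 sample in the LV and for 8.95% in the RV. The difference between the genotype effects of Fkbp1b was 0.58 on the log2(TPM + 1) scale (limma adjusted p = 1), where 2% of those genes had an unadjusted p of at most 0.05. It lay between 0.50 and 1.76 over the 22 alternatives, with an adjusted p of 0.270 or more in each of them.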

How the results depend on the processing

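No member tested was called in any comparison under the alternatives run for it, including the replicate block as a fixed and as a random term. Fkbp1b was not tested under the filter at 5 TPM, and the interaction was not run on the samples of 2 groups alone. Over the whole table the interaction called 2 genes without WT-PLN LV replicate 2, 1 without WT-PLN RV replicate 3 and 0 otherwise. Of 586 member values under 24 alternative settings, which for the interaction were recorded for Fkbp1b alone, 537 kept their direction and 49 did not, and the lowest adjusted p was 0.0653 for Fkbp1b and 0.111 for the other members. For Fkbp1b the adjusted p ranged from 0.0864 to 0.415 between genotypes in the LV, from 0.354 to 1 in the RV and from 0.0653 to 0.451 between WT-PLN ventricles. The block gave 119 called genes of the whole table in the LV and 62 in the RV as a fixed term, against 65 and 34 without it, and changed no call of a member. The numbers of genes called in the LV and RV between genotypes were also 22 and 17 with no filter, 104 and 85 after quantile normalization, 99 and 88 after upper quartile scaling, 95 and 73 without mitochondrially encoded genes, and 230 and 88 without both WT-PLN replicate 1 samples. Leaving out 1 sample gave 19 to 153 calls in the LV, the most without WT-PLN replicate 1, and 14 to 39 in the RV.

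Directions changed as follows, in log2 differences, and the cause was not tested. Quantile normalization gave Ryr2 0.0028 and Jph2 0.085 between genotypes in the LV, Jph2 0.039 in the RV, Asph 0.029 and Srl 0.14 between WT-PLN ventricles, and Asph 0.13 and Srl 0.077 between R14del-PLN ventricles. Upper quartile scaling gave Ryr2 0.019 and Jph2 0.096 in the LV, Jph2 0.017 in the RV, Asph 0.016 and Srl 0.11 between WT-PLN ventricles and Asph 0.075 between R14del-PLN ventricles. Without mitochondrially encoded genes Jph2 was 0.034 in the RV, Srl 0.049 between WT-PLN ventricles, and Asph 0.14 and Srl 0.059 between R14del-PLN ventricles. Leaving out each sample moved the LV genotype difference from -0.28 to 0.095 for Ryr2, -0.028 to 0.37 for Casq2, -0.11 to 0.11 for Trdn, -0.19 to 0.077 for Jph2 and -0.20 to 0.21 for Asph, with the lowest value of each without R14del-PLN LV replicate 3. In the RV the ranges were -0.38 to 0.065 for Ryr2, -0.089 to 0.11 for Trdn, -0.10 to 0.044 for Jph2 and -0.043 to 0.44 for Asph, with the lowest values without R14del-PLN RV replicate 2. Between WT-PLN ventricles they were -0.0056 to 0.42 for Ryr2, -0.024 to 0.15 for Trdn and -0.023 to 0.18 for Hrc, with the lowest values without WT-PLN RV replicate 3. Between R14del-PLN ventricles they were -0.050 to 0.34 for Ryr2, -0.39 to 0.0072 for Casq2, -0.055 to 0.20 for Trdn, -0.12 to 0.26 for Hrc, -0.29 to 0.25 for Asph, -0.028 to 0.068 for Fkbp1b and -0.23 to 0.074 for Srl. The summed level of the members in WT-PLN LV was 1347 TPM after quantile normalization and 1362 TPM after upper quartile scaling. Without mitochondrially encoded genes the sums were 2749 and 2936 TPM in WT-PLN LV and RV and 3122 and 3399.8 TPM in R14del-PLN LV and RV. Asph/Casq2 in WT-PLN LV was 0.297 after quantile normalization. TPM hold no counts, so what depth limits could not be measured, and Fkbp1b below 1 TPM is the member most exposed to it.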
